A study of Mus musculus with 9 samples.

Results

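The 37 genes described here are immediate early, heat shock and dissociation stress genes, and each was found once by symbol among the 52405 genes of an expression table. The table covers 9 RNA-seq libraries of prominin-1-positive cells from the kidney cortex of C57BL/6 mice. The groups were D21-ovx, females ovariectomized at postnatal day 21, D21-s, females sham-operated at postnatal day 21, and M, sham-operated adult males, with 3 libraries in each group, described in the labels as biological replicates. A day of surgery for the males and the age at collection were not found in the labels, which also do not say whether a library came from 1 animal. In all groups the cortex was homogenized, incubated at 37 °C for 30 minutes, filtered, labelled with an antibody against prominin-1, a membrane protein of the proximal tubule brush border, and held on a magnetic column before RNA was prepared. No kidney RNA from tissue that was not dissociated was analysed here, so the share of any level that arose during dissociation was not tested.

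Immediate early genes are transcribed within minutes of a stimulus from factors already present in the cell, with no need for new protein. Serum response factor and CREB, acting below the ERK, p38 and cAMP pathways, switch on AP-1 (Fos and Jun proteins), EGR, KLF and NR4A transcription factors, while phosphatases, RNA-decay proteins and inhibitors made in the same wave shut the response down. Heat shock genes are driven by a separate factor, HSF1, when proteins unfold. Both groups are known to be induced when solid tissue, kidney included, is taken apart into single cells.

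Expression is in FPKM, fragment counts scaled to transcript length and to the mapped fragments of the library, which allows levels to be compared between genes. FPKM sums were 693451 to 734990 per library, and the depth, estimated from the steps between low values, was 21750000 to 28250000 reads. Genes with at least 1 FPKM in at least 3 of the 9 libraries, 13160 in all, were tested on log2(FPKM + 1) with limma, and a gene was called at a Benjamini-Hochberg adjusted p under 0.05. Fold changes are given on that scale, which understates the change of low genes. Xist, the noncoding RNA behind X inactivation, stood at 32.7 to 43.2 FPKM in the female libraries and at most 0.0400 FPKM in the male ones. The Y-linked gene Ddx3y was listed at 0 in every female library and was at 13.1 to 14.8 FPKM in the male ones. The proximal tubule genes Slc34a1, a phosphate transporter, and Lrp2, the endocytic receptor megalin, were at 2549 to 3455 and 122 to 258 FPKM over all libraries, while Umod of the thick ascending limb, Slc12a3 of the distal convoluted tubule and Aqp2 of the collecting duct were at 503 to 1481, 167 to 619 and 28.9 to 81.7 FPKM. Prom1, the gene of the sorted protein, averaged 74.4 FPKM in D21-ovx, 98.6 in D21-s and 45.3 in M. Its log2 fold change against M was 0.71 in D21-ovx (limma adjusted p = 0.0357) and 1.08 in D21-s (adjusted p = 0.00671).

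Of the 37 members, 36 passed the filter on low values. Egr3, an EGR family factor, did not, at 0.1 to 0.81 FPKM. The means over all libraries spanned more than 2 orders of magnitude, and 28 members were above 10 FPKM. Fos, the partner of Jun proteins in AP-1, stood highest at a mean of 293 FPKM, position 278 among the 13160 genes tested when ordered by FPKM. Jun, Junb, Jund and Dusp1, a phosphatase that switches off p38 and JNK, also averaged above 100 FPKM, and the zinc finger factor Egr1 was next at 98.7 FPKM. Nr4a2, Egr2, Maff and Myc were the lowest of those tested, at means of 0.959, 1.35, 3.11 and 3.42 FPKM. Together the 37 genes made up 0.201% to 0.411% of the FPKM that did not come from mitochondrially encoded genes.

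Promoters are shown for 4 members that stand at the top of the list or that were called, Fos, Jun, Junb and Btg2, and for Hspa1a and Hspa1b, the near-identical pair of inducible chaperone genes whose levels are described with the heat shock genes and which were chosen after their values were seen. Myc, which was also called, had no promoter entry, nor had Egr1, Egr3, Ier2 and Nfkbiz. Jund and Dusp1 are not shown. Each sequence covers 250 bases before to 50 bases after the start of the gene, 5′ to 3′ on the gene's own strand, from RefSeq on GRCm38.p6. Capitals mark matches to the cAMP response element TGACGTCA, its first 5 bases TGACG and the heat shock element unit GAANNTTC, searched on both strands. The positions are chr12:85473640-85473939 (plus strand), chr4:95052173-95052472, chr8:84978699-84978998, chr1:134079106-134079405, chr17:34972107-34972406 and chr17:34959189-34959488 (all minus strand).
Fos: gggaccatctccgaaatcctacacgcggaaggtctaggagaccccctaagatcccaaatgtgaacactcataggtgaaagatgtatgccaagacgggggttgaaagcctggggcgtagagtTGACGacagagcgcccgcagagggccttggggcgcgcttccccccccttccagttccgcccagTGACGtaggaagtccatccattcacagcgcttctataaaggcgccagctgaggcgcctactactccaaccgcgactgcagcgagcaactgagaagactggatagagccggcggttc
Jun: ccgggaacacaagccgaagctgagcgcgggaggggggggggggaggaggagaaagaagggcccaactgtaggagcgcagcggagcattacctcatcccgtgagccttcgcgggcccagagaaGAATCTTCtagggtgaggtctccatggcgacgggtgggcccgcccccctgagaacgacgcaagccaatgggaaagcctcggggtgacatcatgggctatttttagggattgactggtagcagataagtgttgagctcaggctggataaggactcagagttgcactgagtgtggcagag
Junb: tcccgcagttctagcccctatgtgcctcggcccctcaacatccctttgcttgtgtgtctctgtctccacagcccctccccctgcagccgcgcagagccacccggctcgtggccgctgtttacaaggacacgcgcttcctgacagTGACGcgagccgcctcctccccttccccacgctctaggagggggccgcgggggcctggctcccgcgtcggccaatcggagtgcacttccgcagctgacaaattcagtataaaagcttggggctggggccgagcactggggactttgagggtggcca
Btg2: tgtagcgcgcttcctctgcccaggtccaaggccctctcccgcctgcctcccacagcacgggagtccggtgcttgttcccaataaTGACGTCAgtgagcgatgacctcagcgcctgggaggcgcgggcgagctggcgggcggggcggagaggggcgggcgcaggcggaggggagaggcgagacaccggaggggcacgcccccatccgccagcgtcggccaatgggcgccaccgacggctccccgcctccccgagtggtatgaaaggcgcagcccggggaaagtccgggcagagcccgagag
Hspa1a: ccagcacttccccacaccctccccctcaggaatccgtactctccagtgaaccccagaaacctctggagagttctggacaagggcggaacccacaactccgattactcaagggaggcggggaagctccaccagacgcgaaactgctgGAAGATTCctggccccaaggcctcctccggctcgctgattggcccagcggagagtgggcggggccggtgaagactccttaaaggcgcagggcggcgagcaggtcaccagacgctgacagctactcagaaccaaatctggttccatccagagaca
Hspa1b: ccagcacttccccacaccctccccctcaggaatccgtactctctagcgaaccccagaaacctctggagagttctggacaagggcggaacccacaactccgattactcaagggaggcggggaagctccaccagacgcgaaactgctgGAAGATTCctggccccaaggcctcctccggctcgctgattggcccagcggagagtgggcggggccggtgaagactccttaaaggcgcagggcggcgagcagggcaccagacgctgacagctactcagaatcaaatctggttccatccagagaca

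Btg2 carried the full cAMP response element, 166 bases before the start, as did Dusp1 and Maff among the 32 members with a promoter entry (9.38%, against 2.03% of 27025 genes). The shorter TGACG, which the full element contains, was found in 15 of 32 members (46.88%), among them Fos, Junb, Atf3, Fosb, Klf2, Klf4 and Nr4a1, against 23.05% of all genes. The heat shock unit was found in 4 of the 5 heat shock members, Hspa1a, Hspa1b, Hspb1 and Hsph1, and in 2 of the 27 others, Jun and Fosl2, against 9.04% of all genes. The CArG box, the site of serum response factor, was found for Egr2 and Zfp36 (6.25% of members and 1.81% of all genes), the EGR site GCGGGGGCG for 7 members (21.88%, against 3.31%), and the AP-1 site TGACTCA, whose reverse strand reads TGAGTCA, for 0 of 32 (against 5.95%). These are matches of letters in a 300-base window and say nothing of binding or of sites outside it.

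The comparison of D21-s with M set females against males, both sham-operated. The day of surgery of the males and the age at collection were not found, so sex could not be told apart from these. Markers of other kidney cells also differed between the groups, as given below. Myc, a growth factor-responsive transcription factor, was higher in D21-s than in M, and Btg2, an antiproliferative gene induced by p53 and by growth signals, was lower. No other member was called. The levels of most members were lower in the D21-s libraries on average, but the libraries of both groups were spread widely.

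Of the 36 tested members 1 was called higher (background 4.28% of 13160 genes) and 1 lower (background 4.87%), 2 in all in either direction (background 9.15%). Without D21-s library 1 the lower count was 6 of 36, against 747 of 13160 genes. It was 0 without M library 2 (260 of all genes) or 3 (271), D21-s library 2 (224) or 3 (333), or D21-ovx library 3 (456). The higher count was 0 without M library 2 (385 of all genes) or 3 (372) or D21-s library 2 (346) or 3 (402). Fold changes were below 0 for 31 of 36 members (background 66.8%) and above 0 for 5 (background 33.2%), and the median was -0.374 for the members and -0.089 for all genes. An unadjusted p under 0.05 with a lower level was reached by 9 members (background 18.1%), namely Btg1, Btg2, Egr1, Fos, Ier3, Junb, Klf6, Nr4a1 and Socs3, and with a higher level by Myc alone (background 8.50%). The libraries did not overlap for 7 lower members, Btg2, Egr2, Fos, Ier3, Junb, Nr4a1 and Socs3 (background 20.6%), and for 1 higher member, Myc (background 9.66%).

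The median of the members depended on the libraries. It was -0.179 without D21-s library 3, -0.261 without M library 2, -0.496 without M library 3 and -0.517 without D21-s library 1. With the mean level of 59 markers of other kidney cell types as a covariate it was 0.147. The score of those markers was 0.251 to 0.715 in M and at most 0.168 in the female libraries. All M libraries thus lay above all female ones, and a fit with this covariate cannot fully separate the score from the group. Bulk RNA does not tell fewer cells of a type from less RNA per cell.

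**Figure D1:**
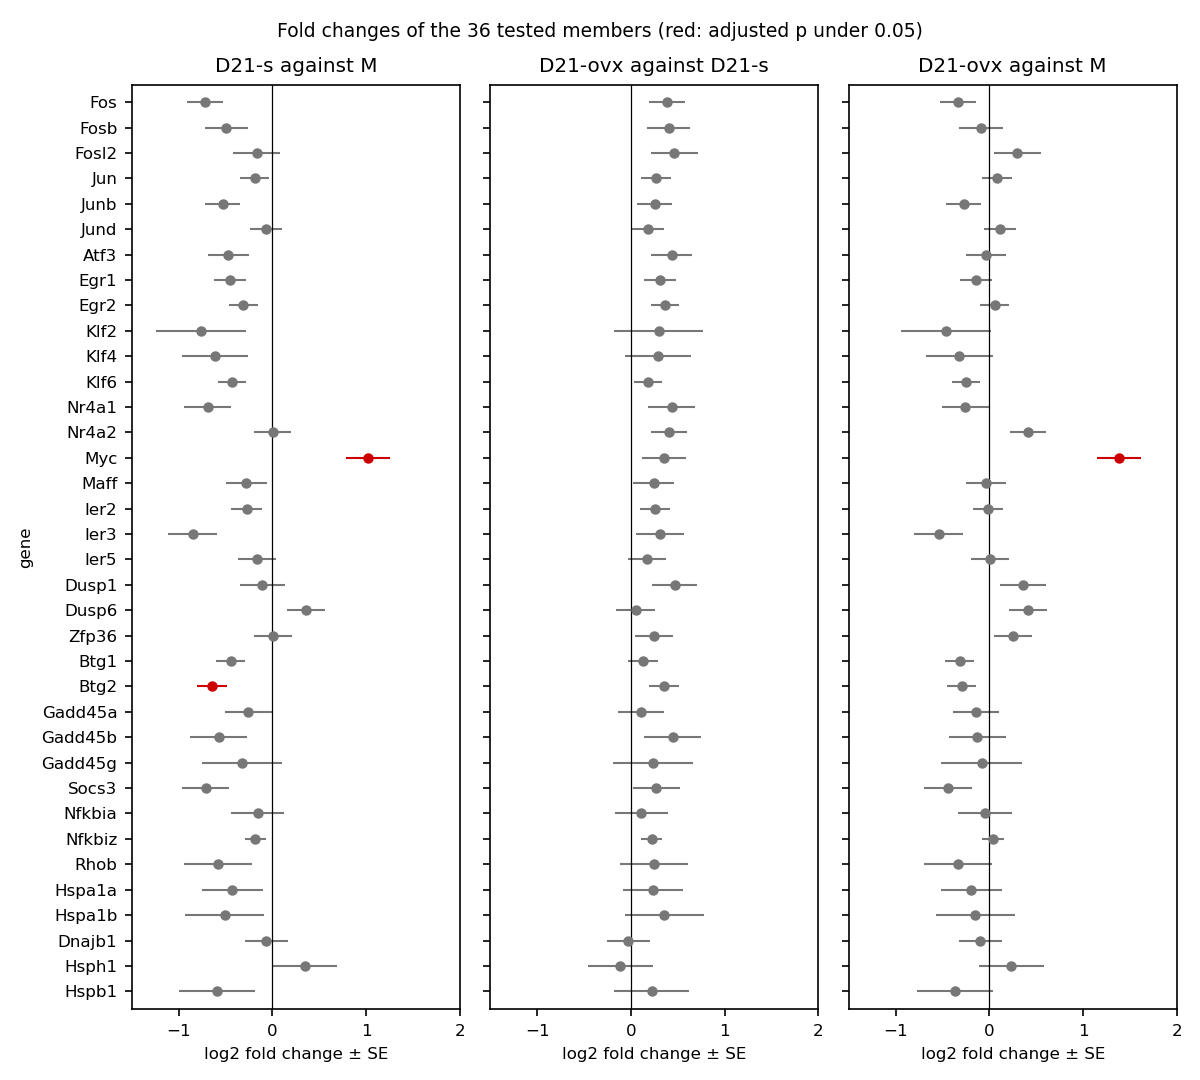
Log2 fold change (x axis, with SE) of the 36 tested members (y axis) in the 3 comparisons, from 1 limma fit to all 9 libraries. Red points have an adjusted p under 0.05: Myc and Btg2 in D21-s against M, none in D21-ovx against D21-s, and Myc in D21-ovx against M.

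Among the AP-1 and ATF factors, which bind as pairs to AP-1 and related sites, 0 of 7 were called in D21-s against M, at log2 fold changes of -0.72 to -0.07. Fos (ENSMUSG00000021250, chromosome 12, 85473890 to 85477273 in GENCODE M21, GRCm38) was at 294, 262 and 304 FPKM in the D21-ovx libraries, 266, 224 and 176 in D21-s and 279, 473 and 357 in M. Every D21-s library lay below every M library, while D21-ovx overlapped both groups. The means were 222 ± 45.2 FPKM in D21-s and 369 ± 98.0 in M (SD, n = 3 each), with a log2 fold change of -0.72 (SE 0.20) and a limma adjusted p of 0.0521, just short of the threshold. This value crossed the threshold in 5 of 20 alternatives (adjusted p 0.0176 to 0.763 over all), among them without M library 1 (0.0176) and without D21-s library 1 (0.0359). With the covariate for other kidney cells the log2 fold change of Fos was -0.18 (adjusted p = 0.763), and without M library 2 it was -0.52 (0.143). Jun (ENSMUSG00000052684, chromosome 4, 95049034 to 95052222) was at 174, 154 and 166 FPKM in D21-ovx, 166, 141 and 108 in D21-s and 163, 177 and 131 in M, so that all groups overlapped. Junb (ENSMUSG00000052837, chromosome 8, 84974484 to 84978718) was at 125, 93.2 and 110.3 FPKM in D21-ovx, 110.2, 95.9 and 70.8 in D21-s and 127, 162 and 111 in M, and D21-s lay below M without overlap (log2 fold change -0.53, adjusted p = 0.109 in limma). Jund, the least inducible Jun protein, had the smallest difference of these factors between D21-s and M, at 103 ± 16.7 and 109 ± 19.5 FPKM. Fosb, Atf3, which represses stress genes as a homodimer, and Fosl2 ranged over 45.4 to 115, 25.2 to 56.4 and 3.12 to 7.42 FPKM.

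**Figure D2:**
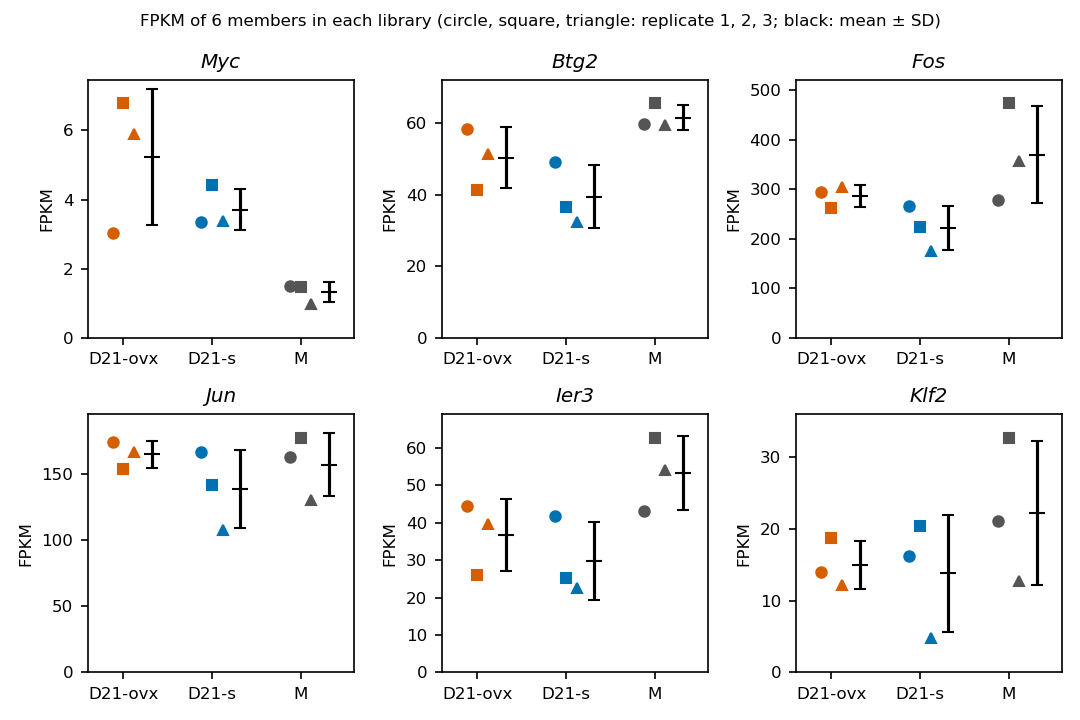
FPKM (y axis, from 0) of Myc, Btg2, Fos, Jun, Ier3 and Klf2 in each library of D21-ovx, D21-s and M, with the mean and SD of each group in black. Myc is above 3 FPKM in all female libraries and at most 1.51 FPKM in the male ones, while each of the other 5 genes has its lowest value in D21-s library 3.

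Of the other transcription factors, 1 of 9 tested was called higher and 0 lower in D21-s against M. Myc (ENSMUSG00000022346, chromosome 15, 61985391 to 61990374) was at 3.03, 6.78 and 5.91 FPKM in D21-ovx, 3.34, 4.41 and 3.39 in D21-s and 1.51, 1.47 and 0.98 in M. All 6 female libraries lay above all 3 male libraries, and D21-ovx library 1 lay below the other 5. Means were 3.71 ± 0.604 FPKM in D21-s and 1.32 ± 0.295 in M (SD, n = 3 each), a log2 fold change of 1.02 (SE 0.23, limma adjusted p = 0.0281). These levels correspond to about 42 to 259 reads per library at the estimated depths and the median length of the annotated Myc transcripts. The number would differ if a longer or shorter transcript were the main one. The call was lost without M library 2 (0.0697) or 3 (0.1), without D21-s library 2 (0.105) or 3 (0.0617), with no filter on low values (0.0834) and with the covariate for other kidney cells (0.453), at log2 fold changes of 0.69 to 1.44 over 19 alternatives.

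Egr1 (ENSMUSG00000038418, chromosome 18), a zinc finger factor that turns on growth and repair genes, was at 111, 88.1 and 105 FPKM in D21-ovx, 98.1, 86.5 and 62.7 in D21-s and 110.5, 129.9 and 96.3 in M, with overlap between D21-s and M (log2 fold change -0.45, adjusted p = 0.128 in limma). Nr4a1, an orphan nuclear receptor, was at 44.8, 26.4 and 37.7 FPKM in D21-ovx, 37.4, 25.4 and 18.4 in D21-s and 42.5, 48.1 and 37.8 in M. D21-s library 1 lay just below the lowest male library, and the difference of -0.69 was not called (adjusted p = 0.119). Klf6, a Krüppel-like factor induced by tubule injury, was at 29.2, 27.4 and 27.2 FPKM in D21-ovx, 31.7, 22.5 and 20.3 in D21-s and 33.5, 37.4 and 29.6 in M (D21-s against M -0.44, adjusted p = 0.103). Klf2, a shear-responsive factor best known from endothelium, was at 14.1, 18.7 and 12.2 FPKM in D21-ovx, 16.2, 20.4 and 4.73 in D21-s and 21.1, 32.6 and 12.8 in M. Its D21-s libraries differed 4.32-fold among themselves, the widest range within a group among the tested members, and the groups overlapped (adjusted p = 0.338). The summed FPKM of 9 endothelial markers was likewise lowest in D21-s library 3 and highest in M library 2, at 182, 142 and 105 in D21-ovx, 187, 190.1 and 53.2 in D21-s, and 203, 353 and 182 in M, and their part in the Klf2 level was not tested. Klf4 was likewise lowest in D21-s library 3, at 5.74 FPKM, and highest in M library 2, at 26.2.

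Of the 15 feedback and growth-arrest genes, 0 were called higher and 1 lower in D21-s against M. Btg2 (ENSMUSG00000020423, chromosome 1, 134075170 to 134079120) was at 58.3, 41.4 and 51.4 FPKM in D21-ovx, 49.2, 36.7 and 32.5 in D21-s and 59.6, 65.5 and 59.6 in M. All 3 male libraries lay above all 6 female libraries. Means were 39.5 ± 8.70 FPKM in D21-s and 61.6 ± 3.42 in M (SD, n = 3 each), a log2 fold change of -0.65 (SE 0.16, limma adjusted p = 0.0359). The call was lost without M library 1 (0.0541), 2 (0.118) or 3 (0.0926), without D21-s library 2 (0.121) or 3 (0.106), without D21-ovx library 3 (0.0593), with no filter on low values (0.0947) and in a fit of the 2 groups alone (0.0527). With the covariate for other kidney cells the log2 fold change of Btg2 was -0.16 (adjusted p = 0.634).

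Ier3, a short-lived survival protein, had the lowest fold change of all members in D21-s against M and is shown for that reason. It was at 44.4, 26.1 and 39.7 FPKM in D21-ovx, 41.8, 25.1 and 22.4 in D21-s and 43.0, 62.6 and 54.0 in M, with no overlap between D21-s and M (log2 fold change -0.85, adjusted p = 0.0742 in limma, not called). With the covariate for other kidney cells its log2 fold change was -0.05 (adjusted p = 0.947), and without D21-s library 1 it was called at -1.11 (0.0213), the only call in 20 alternatives. Dusp1 was at 118, 133 and 124 FPKM in D21-ovx, 89.7, 118 and 68.3 in D21-s and 112, 122 and 66.5 in M. Its libraries spread more within D21-s and M than the group means differed. Zfp36, which destabilizes cytokine mRNAs, was at 92.0, 85.5 and 92.9 FPKM in D21-ovx, 92.1, 75.0 and 62.6 in D21-s and 102, 74.9 and 55.9 in M, and its group means in D21-s and M differed by 0.01 on the log2 scale. Gadd45g, a growth-arrest and stress kinase activator, was at 50.4, 77.5 and 37.3 FPKM in D21-ovx, 68.3, 60.9 and 21.0 in D21-s and 73.7, 54.0 and 43.7 in M. D21-s library 3 was the lowest of the 9 and 3.26-fold below D21-s library 1.

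The remaining feedback genes were not called in any comparison. Dusp6, the phosphatase that removes the activating marks of ERK, was one of 2 genes of this group with a fold change above 0 in D21-s against M, at 35.0 ± 10.1 FPKM in D21-s and 26.7 ± 5.33 in M (0.36, adjusted p = 0.29 in limma). Socs3, the inhibitor of cytokine receptor signalling, was at 19.9 ± 6.59 and 32.6 ± 8.35 FPKM without overlap (-0.71, adjusted p = 0.112). Nfkbia and Nfkbiz, an inhibitor and a nuclear partner of NF-kappaB, ranged over 14.9 to 33.3 and 4.83 to 6.59 FPKM. Rhob, a small GTPase of endosomes and stress fibres, ranged over 12.6 to 51.1 FPKM.

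The heat shock members, chaperones and co-chaperones that refold or hold unfolded proteins, showed an order by replicate number. Hspa1a, Hspa1b, Dnajb1 and Hsph1 each had their highest library of every group at number 2, and 0 of 5 heat shock members were called in any comparison. Hspa1b, an inducible HSP70, was at 10.6, 22.1 and 8.14 FPKM in D21-ovx, 8.76, 16.3 and 5.90 in D21-s and 10.1, 20.9 and 12.8 in M. Hspa1a was at 8.64, 17.5 and 9.97 FPKM in D21-ovx, 10.2, 12.6 and 6.82 in D21-s and 10.4, 20.7 and 10.7 in M. The pair share 296 of the 300 promoter bases shown above and 47.1% of the 100-base windows of the Hspa1a transcript, so the division of reads between the pair is uncertain.

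Dnajb1, the HSP40 partner of HSP70, was at 14.7, 17.9 and 11.4 FPKM in D21-ovx, 13.3, 20.0 and 11.9 in D21-s and 12.7, 20.4 and 14.3 in M. Hsph1, a nucleotide exchange factor of the same cycle, was at 36.8, 61.2 and 26.3 FPKM in D21-ovx, 41.7, 57.9 and 31.1 in D21-s and 24.4, 48.4 and 30.2 in M. All 3 libraries numbered 2 stood above the other 6 for both genes, and likewise for Hspa1a and Hspa1b. Hspb1, the small heat shock protein HSP27, departed from this order, at 8.43, 8.50 and 4.85 FPKM in D21-ovx, 8.78, 8.17 and 2.68 in D21-s and 8.41, 14.8 and 6.58 in M, with library 1 the highest in D21-s and library 3 the lowest of every group.

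The same order was looked for in the rest of the table. Library 2 was the highest of every group for 4 of 5 heat shock members (80%), for 11 of 34 other heat shock chaperones and regulators (32.35%), for 4 of the 31 remaining members (12.9%, Dusp1, Fosb, Klf2 and Klf4), and for 5.2% of all 13160 genes. The 11 were Ahsa1, Bag3, Cacybp, Chordc1, Dnaja1, Dnajb9, Hspa5, Hspa8, Serpinh1, Stip1 and Ubb. Hspa8, the constitutive HSP70, was at 1662, 2394 and 1323 FPKM in D21-ovx, 1705, 2202 and 1523 in D21-s and 1715, 1891 and 1545 in M. Hsf1, the factor itself, was at 10.56, 13.7 and 10.56 FPKM in D21-ovx, 9.75, 11.26 and 11.37 in D21-s and 9.92, 16.12 and 12.15 in M. Library 2 was thus the highest in D21-ovx and M but not in D21-s. Other orders by number were seen among the remaining members. Library 3 was the lowest of every group for 8 of the 31 (25.81%) and for 1 of 5 heat shock members (20%), against 6.19% of all genes. Library 1 was the highest of every group for 5 of the 31 (16.13%) and for 0 of 5 heat shock members, against 4.46% of all genes. The labels do not say whether a replicate number marks a shared day or preparation, and the source of these orders was not tested.

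**Figure D3:**
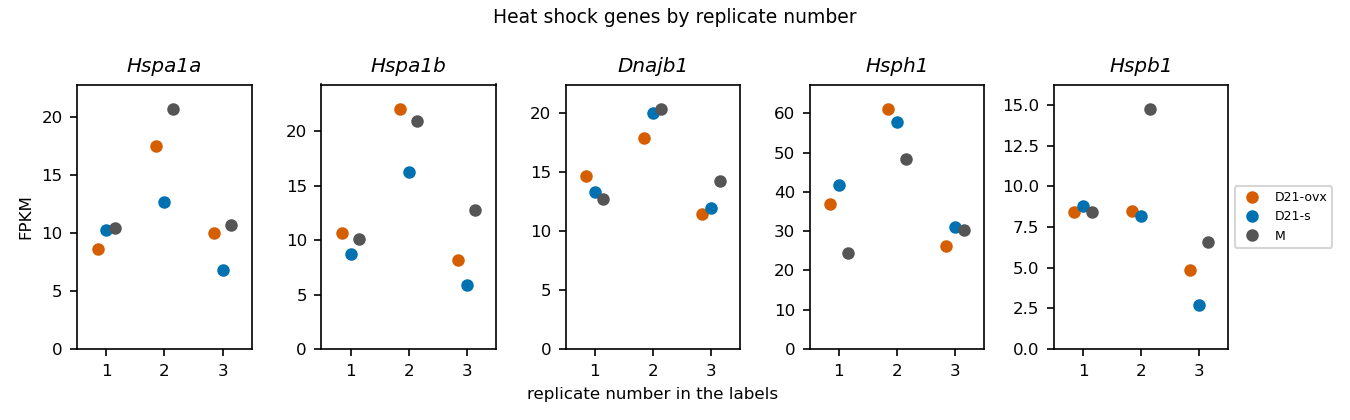
FPKM (y axis, from 0) of the 5 heat shock members by replicate number (x axis), coloured by group. In Hspa1a, Hspa1b, Dnajb1 and Hsph1 the point of number 2 is the highest of each group.

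Libraries of a group differed widely for the members. The median SD within groups was 0.333 on the log2 scale for the 36 tested members, 0.513 for the 5 heat shock members and 0.304 for the other 31, against 0.150 over all genes tested. D21-s library 3 was the lowest of its group for 31 of 36 members (33.9% of all genes) and the lowest of all 9 libraries for 25. M library 2 was the highest of its group for 24 of 36 (41.3% of all genes) and the highest of all 9 for 19. For these ranks over all 9 libraries the share of all genes was not computed. D21-s library 1 was the highest of its group for 26 of 36 members (39.8% of all genes).

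Library medians of the members showed the same 2 ends. After centring each gene on its mean over the 9 libraries, the median of the members was 0.193, 0.053 and 0.006 in D21-ovx, 0.101, -0.1 and -0.563 in D21-s, and 0.109, 0.397 and -0.042 in M. Over all genes tested the same medians lay between -0.053 and 0.084. The score of markers of other kidney cells, the mean centred log2 value of 59 tested marker genes, was likewise lowest in D21-s library 3 and highest in M library 2, at 0.152, -0.387 and -0.244 in D21-ovx, 0.168, -0.344 and -0.720 in D21-s, and 0.251, 0.715 and 0.409 in M. Summed markers of the thick ascending limb (8 of 8 tested) were at 1233 to 1727 FPKM in D21-ovx, 954 to 1601 in D21-s and 1589 to 2599 in M, and those of podocytes (7 of 7) at 82.6 to 238, 45.4 to 281 and 218 to 310 FPKM. Distal convoluted tubule markers (8 of 8) summed to 501 to 741, 364 to 727 and 895 to 1239.7 FPKM, principal cell markers (8 of 8) to 169.9 to 250.3, 146 to 228 and 279 to 389.96 FPKM, and intercalated cell markers (8 of 8) to 65.2 to 117, 53.4 to 100.4 and 132 to 188 FPKM, in the order D21-ovx, D21-s and M. Stromal (6 of 9) and macrophage markers (5 of 9) summed to 30.0 to 61.8 and 29.7 to 56.5 FPKM over all libraries, lymphocyte and neutrophil markers (0 of 9) to 0.630 to 5.72, and no marker was at 0 in every library. The sums of thick ascending limb and podocyte markers were lowest in D21-s library 3 and highest in M library 2, as for the score. Those of the distal convoluted tubule, principal cells and intercalated cells were lowest in D21-s library 2, and the distal convoluted tubule sum was highest in M library 3. Macrophage markers were lowest in D21-ovx library 3 and highest in D21-s library 1. Proximal tubule markers (15 of 15) summed to 8345 to 9409 FPKM in D21-ovx, 8013 to 9359.9 in D21-s and 7660 to 8884 in M. These sums overlapped, but single markers differed. In D21-s against M 7 of the 15 were called higher (background 4.28%) and 1 lower (background 4.87%). In D21-ovx against M 6 were higher (background 5.63%) and 1 lower (background 6.19%). The part of these cells in the levels of the members was not tested beyond the covariate fit given above.

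**Figure D4:**
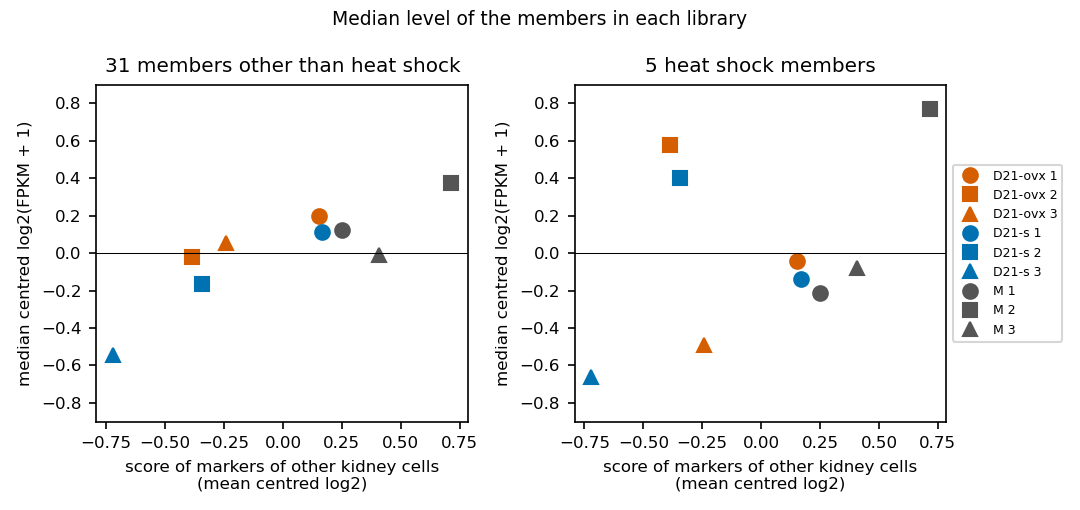
Median centred log2(FPKM + 1) of the members in each library (y axis) against the score of markers of other kidney cells (x axis), for 31 members other than heat shock genes (left) and 5 heat shock members (right), 1 point per library. On the left D21-s library 3 is lowest on both axes and M library 2 highest, and on the right the 3 libraries numbered 2 are the highest.

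The comparison of D21-ovx with D21-s addressed the loss of the ovaries. Of the 36 tested members 0 were called higher (background 0.00%) and 0 lower (background 0.00760%, 1 gene of 13160) in limma, and only Egr2, an EGR factor, reached an unadjusted p under 0.05, as higher (background 3.47%), with 0 as lower (background 2.82%). It was at 1.79, 1.29 and 1.62 FPKM in D21-ovx and 1.07, 1.0 and 0.89 in D21-s (log2 fold change 0.37, adjusted p = 0.762). Over all 9 libraries this is about 19 to 41 reads per library. That estimate uses the median length of 7 annotated Egr2 transcripts and would be higher for a longer one. Fold changes were above 0 for 34 members (background 52.2%) and below 0 for Dnajb1 and Hsph1 (background 47.8%), and they lay between -0.11 and 0.47, with a median of 0.264 against 0.007 for all genes tested. That median was 0.091 without D21-s library 3 and 0.405 without D21-s library 1.

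By role, the AP-1 and ATF factors had a median of 0.384 in D21-ovx against D21-s, the other transcription factors 0.313, the feedback genes 0.244 and the heat shock genes 0.222, with 0 calls in each. Dusp1 showed the largest value, at 125 ± 7.83 FPKM in D21-ovx and 92.1 ± 25.2 in D21-s (SD, n = 3 each; 0.47, SE 0.24, adjusted p = 0.862 in limma). Fos was at 287 ± 22.1 and 222 ± 45.2 FPKM (0.38, adjusted p = 0.85), and Btg2 at 50.4 ± 8.52 and 39.5 ± 8.70 FPKM (0.35, adjusted p = 0.794). Myc was not called and its libraries overlapped, at 5.24 ± 1.96 FPKM in D21-ovx and 3.71 ± 0.604 in D21-s (0.36, SE 0.23, adjusted p = 0.938). The libraries separated fully for Egr2 and Nfkbiz, both higher (background 6.76%), and for 0 members lower (background 6.09%).

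The comparison of D21-ovx with M shares its libraries with both others. Myc was called higher (1 of 36, background 5.63%) and 0 members were called lower (background 6.19%) in limma, 1 in either direction (background 11.8%). At an unadjusted p under 0.05, 0 were lower (background 19.0%) and Myc alone was higher (background 9.68%). Myc averaged 5.24 ± 1.96 FPKM in D21-ovx and 1.32 ± 0.295 in M (SD, n = 3 each; log2 fold change 1.38, SE 0.23, adjusted p = 0.00564). It was called in 18 of 19 alternatives, with 0.0798 under the covariate for other kidney cells. Btg2 was at 50.4 ± 8.52 FPKM in D21-ovx and 61.6 ± 3.42 in M (-0.30, adjusted p = 0.251) and was not called, although its libraries did not overlap. The same held for Klf6 and Socs3, lower in D21-ovx (3 members with no overlap, background 23.2%), and Nr4a2, a nuclear receptor near the filter, was higher with no overlap but not called (2 members with Myc, background 10.9%; 0.41, adjusted p = 0.198). Fold changes were below 0 for 24 members (background 65.9%) and above 0 for 12 (background 34.1%). The median was -0.092 for the members and -0.088 for all genes tested, and that of the members was 0.024 without M library 2, -0.198 without M library 1 and -0.189 without M library 3.

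**Figure D5:**
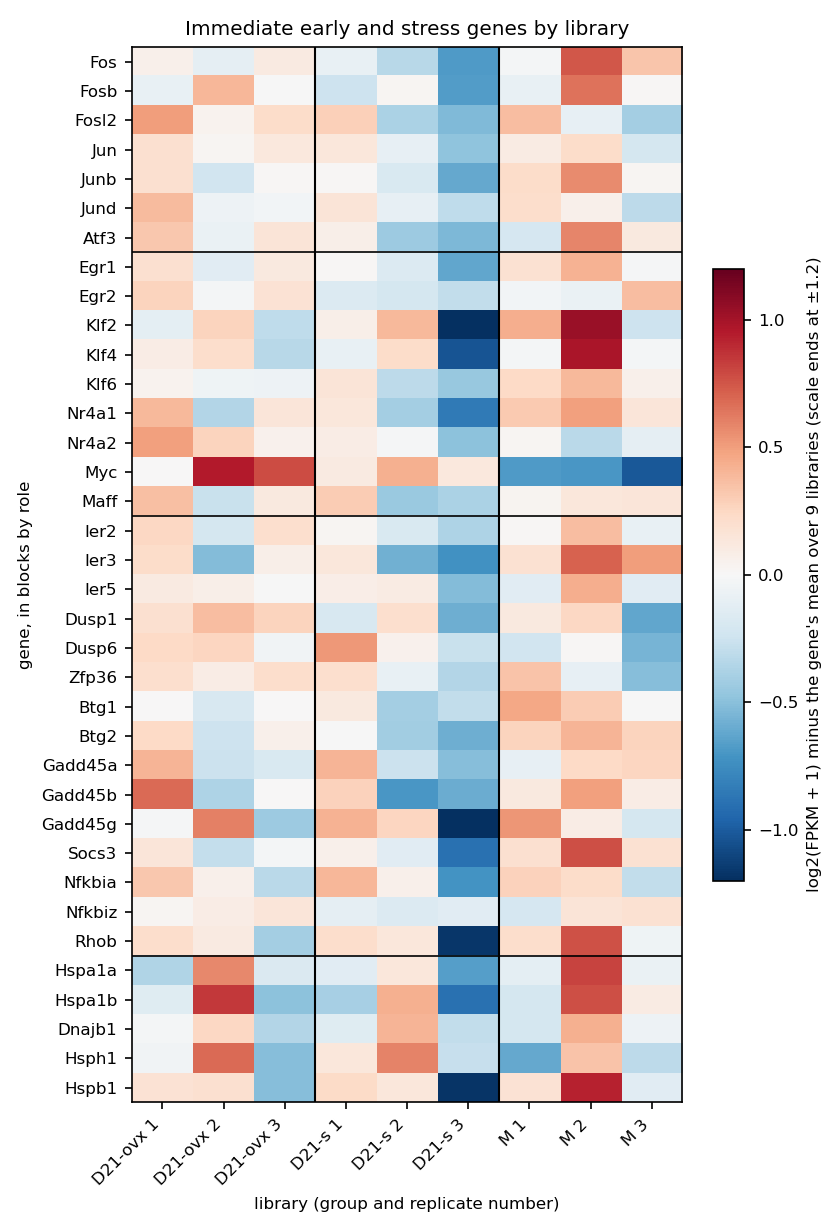
Log2(FPKM + 1) of the 36 tested members, each minus its mean over the 9 libraries (colour), with genes in rows by role and libraries in columns. The column of D21-s library 3 is blue for nearly all rows, that of M library 2 red for most, and Myc is the row with low values in all 3 male libraries.

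Genes around the members were followed in lists. Among 40 tested other immediate early and rapid feedback genes, 2 were called higher (background 4.28%) and 1 lower (background 4.87%) in D21-s against M. In D21-ovx against D21-s 0 were called (background 0.00760%). In D21-ovx against M 3 were higher (background 5.63%) and 0 lower (background 6.19%). Calls in these lists are given from the fit to all 9 libraries alone, without the alternatives. Bhlhe40, a clock-linked repressor, was at 80.5 ± 11.3 FPKM in D21-s and 47.3 ± 11.9 in M (SD, n = 3 each; log2 fold change 0.78, adjusted p = 0.0486 in limma), and at 84.4 ± 17.9 FPKM in D21-ovx (0.83 against M, adjusted p = 0.0320). Id1, an inhibitor of basic helix-loop-helix factors, was at 52.5 ± 1.95 FPKM in D21-ovx, 51.6 ± 6.37 in D21-s and 33.7 ± 8.07 in M (0.65 and 0.62 against M). Ddit4, a stress-induced inhibitor of mTORC1, was lower in D21-s, at 7.29 ± 1.74 FPKM against 11.02 ± 1.06 in M (-0.55, adjusted p = 0.0456), and Nfil3, a repressor of clock output genes, was higher in D21-ovx, at 4.52 ± 0.0473 FPKM against 2.55 ± 0.915 in M (0.67, adjusted p = 0.0464). Of 27 tested kinases and transcription factors upstream of immediate early genes, 0 were called in any comparison, with medians of -0.094, 0.015 and -0.049 in the order of the comparisons above.

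Among 34 other heat shock chaperones and regulators, 0 were called higher (background 4.28%) and 1 lower (background 4.87%) in D21-s against M. In D21-ovx against D21-s 0 were called (background 0.00760%). In D21-ovx against M 1 was higher (background 5.63%) and 3 were lower (background 6.19%). Ubb, a polyubiquitin gene, was lower in both female groups, at 520.2 ± 15.3 FPKM in D21-ovx and 535 ± 17.6 in D21-s, against 678 ± 41.2 in M (-0.38 and -0.34, adjusted p = 0.00375 and 0.00833 in limma). Cryab, a small heat shock protein, and Hspa14, a ribosome-bound HSP70 whose annotated locus overlaps another gene so that its counts are uncertain, were lower in D21-ovx than in M by log2 fold changes of -0.81 and -0.35, and Hspa9, the mitochondrial HSP70, was higher by 0.21. Of 24 NF-kappaB and cytokine feedback genes, 0 were called in D21-s against M and 0 in D21-ovx against D21-s, with median log2 fold changes of -0.187 and -0.038. Of 14 p53 targets and growth-arrest genes 1 was lower in D21-s against M (background 4.87%) and 2 in D21-ovx against M (background 6.19%). Trp53inp1, a p53-induced regulator of autophagy, was at 4.18 ± 0.743 FPKM in D21-ovx, 3.81 ± 0.405 in D21-s and 7.38 ± 1.38 in M (-0.69 and -0.79 against M), and Ccng1, cyclin G1, was at 36.05 ± 1.57 FPKM in D21-ovx against 44.6 ± 2.35 in M (-0.30).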

How the data were processed

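The authors deposited FPKM per gene and library, with 2 decimals and no stated scaling between libraries, per the file headers. STAR 2.6.0c and RSEM are listed per the submitters' processing notes. No source used here names the genome build or annotation. Positions come from GENCODE M21 (GRCm38), which holds all 37 members. A further 4 unnamed columns beside the expression values were not used.

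Depth was estimated by finding the read number at which low FPKM of genes with 1 transcript of 300 to 800 bp fall on whole reads (1 to 3 reads, within 0.0055 FPKM). At the best value 65.1% to 72.9% did, against a median of 5.9% to 6.9% over the values searched. Because these are estimates, no counting intervals were computed.

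Values were fitted as log2(FPKM + 1) with limma 3.58.1 in R 4.3.3, with 1 coefficient for each group, empirical Bayes moderation with a trend of variance on level, two-sided tests and adjusted over all 13160 genes tested. The fit was tested on simulated data. The labels do not say that libraries come from separate animals, so p-values measure the spread between these libraries.

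Deviations of same-numbered libraries from their group means correlated at 0.347, 0.174 and 0.291 between D21-ovx and D21-s, at -0.125, 0.145 and 0.280 between D21-s and M, and at -0.030, 0.016 and 0.075 between D21-ovx and M, across 13160 genes. Libraries of different numbers correlated at -0.325 to 0.054 between D21-ovx and D21-s, at -0.356 to 0.282 between D21-s and M, and at -0.191 to 0.163 between D21-ovx and M. Only between the female groups did every same-numbered pair lie above every other pair, a hint from the data and not from the labels. The order of the heat shock members by number was seen in every group, M included. With a replicate block 0 members were called in D21-ovx against D21-s, as without it.

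Every library value is given for members that were called, that have 1 of the 3 highest means of their role, or that differ over 3-fold within a group (16 members). In other lists up to 4 called genes per comparison are named. Alternatives changed the pseudocount, the filter, the scaling, the variance model, the groups in the fit, the replicate block, a covariate for other kidney cells and the libraries. The members and lists were chosen with earlier results of these data known. One result on a gene outside the 37 members is not reported here.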

Additional observations from a re-analysis of the deposited data

How the results depend on the processing

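Counts of called members were small and moved with the processing. For D21-s against M the 1 member higher (Myc) and 1 lower (Btg2) became 0 and 0 with no filter on low values and with the covariate for other kidney cells, 0 and 2 with a filter of 5 FPKM (which leaves Myc out and adds Fos), and the 1 lower became 2 with quantile normalization and with rescaling without mitochondrial genes (Btg2 and Fos), 2 with a replicate block (Btg2 and Fosb), and 0 in a fit of only the 2 groups compared. With libraries left out in turn the count ranged from 0 to 1 higher and from 0 to 6 lower, the 6 without D21-s library 1 being Btg1, Btg2, Fos, Ier3, Klf6 and Nr4a1. For D21-ovx against M the 1 higher became 0 with a filter of 5 FPKM and with the covariate, and stayed at 1 with each library left out. For D21-ovx against D21-s every alternative gave 0 in both directions, also with a replicate block in the 2 female groups alone, an alternative chosen after seeing the data. No called member changed sign. Of 2116 values of members called in neither fit, 132 had the other sign. The median fold change of the members under the covariate was 0.147 in D21-s against M and 0.387 in D21-ovx against M. Both lay on the other side of 0 from -0.374 and -0.092. The covariate was higher in every M library than in every female library, so it cannot be fully told apart from the group, and the cause was not tested. Over all genes, the calls of D21-s against M were 563 higher and 641 lower as deposited. They were 845 and 471 with median-ratio scaling, and 695 and 471 with quantile normalization. With no filter on low values they were 395 and 344 of 29075 genes, and with a filter of 5 FPKM 519 and 547 of 9119. The covariate gave 226 and 127, and the fit of only the 2 groups 378 and 344. Rescaling without mitochondrial genes gave 588 and 646, and the replicate block 529 and 581. The calls of D21-ovx against M were 741 and 814 as deposited, 1024 and 490 with median-ratio scaling, and 767 and 536 with quantile normalization. They were 681 and 698 of 9119 with a filter of 5 FPKM, and 421 and 274 with the covariate. Means of 3 libraries and the low estimated read numbers of Egr2, Egr3, Nr4a2 and Myc limit the precision.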
